A study of Mus musculus with 20 samples.

Results

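The 10 genes described here encode the anchoring junctions of keratinocytes, the epithelial cells of the epidermis, and they were taken as a fixed list from the 55471 genes of the count table. 5 of them belong to the hemidesmosome (Itga6, Itgb4, Col17a1, Dst and Lamb3) and 5 to the desmosome (Dsp, Dsc3, Dsg3, Jup and Pkp1). Hemidesmosomes are rivets on the underside of basal keratinocytes, where an integrin and a transmembrane collagen hold laminin in the basement membrane and plakin proteins tie them to keratin filaments inside the cell. Desmosomes join keratinocytes to each other in all living layers, through cadherins that cross the membrane and armadillo and plakin proteins that link them to the same keratin network. Blistering of the skin follows when either junction fails.

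RNA was measured in 20 libraries from WT mice, 5 in each of 4 groups: acetone-treated skin, DNFB-treated skin, PBS-treated pancreas and caerulein-treated pancreas. DNFB is a contact allergen that causes dermatitis in sensitized mice. Its solvent was acetone with olive oil, which the methods call acetone. According to the methods, the skin mice were male and female and 4 to 6 weeks old at the start, the protocol ran for 22 days, and the epidermis of the back was isolated for RNA. Caerulein is a peptide that overstimulates pancreatic acinar cells, and it was injected at 50 μg/kg, 6 times per day on 3 days per week for 3 weeks. The age of the pancreas mice is not given in the sources used here, and the labels do not say whether each library came from a separate mouse, so p-values measure the spread between these libraries.

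Library totals ran from 791491 to 2232039 counts, but 37.9% to 94.3% of them fell on 12 satellite-like predicted genes. The counts left for other genes ran from 92640 to 1073987 in acetone skin, 150167 to 685481 in DNFB skin, 69592 to 201611 in PBS pancreas and 87788 to 591505 in caerulein pancreas. Acetone libraries 11 and 12 stood apart from acetone libraries 1, 2 and 3 in this depth, with 1073987 and 938689 counts against 92640 to 152978. The members held 60 to 4961 counts per library in acetone skin and 92 to 1799 in DNFB skin, so their values in the shallow libraries rest on few reads. In the skin libraries all 5 basal keratinocyte markers (Krt5, Krt14, Krt15, Trp63 and Sfn) and all 6 suprabasal markers were detected, and markers of fibroblasts, leukocytes, melanocytes and skeletal muscle were present too. The libraries are therefore tissue mixtures by their markers, and in such bulk RNA fewer cells of a type and less RNA per cell cannot be told apart.

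Sequence upstream of the start site was examined for only 5 of the 10 members, taken from the RefSeq promoter table (build GRCm38.p6). The 250 bases before the start of 4 of them are shown because Col17a1 and Dst had the lowest log2 fold changes in DNFB skin and Dsp and Jup carried the most counts of the desmosome. Capitals mark matches on either strand to the letters TATAAA of the TATA box, to those of the GC box, which are GGGCGG, and to the core read by KLF factors, which is CACCC. The windows lie at chr19:47692043-47692292 on the minus strand for Col17a1, chr1:34011345-34011594 on the plus strand for Dst, chr13:38151044-38151293 on the plus strand for Dsp, and chr11:100397791-100398040 on the minus strand for Jup.
Col17a1: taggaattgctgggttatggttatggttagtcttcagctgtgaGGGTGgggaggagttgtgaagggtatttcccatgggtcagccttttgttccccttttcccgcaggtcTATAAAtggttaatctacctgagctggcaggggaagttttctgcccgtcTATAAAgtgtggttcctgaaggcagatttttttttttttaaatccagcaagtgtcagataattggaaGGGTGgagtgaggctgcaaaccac
Dst: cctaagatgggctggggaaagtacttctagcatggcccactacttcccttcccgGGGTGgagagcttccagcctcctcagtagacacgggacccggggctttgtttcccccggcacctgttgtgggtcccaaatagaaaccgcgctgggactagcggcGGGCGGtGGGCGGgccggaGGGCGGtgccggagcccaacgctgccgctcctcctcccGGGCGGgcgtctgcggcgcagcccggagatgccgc
Dsp: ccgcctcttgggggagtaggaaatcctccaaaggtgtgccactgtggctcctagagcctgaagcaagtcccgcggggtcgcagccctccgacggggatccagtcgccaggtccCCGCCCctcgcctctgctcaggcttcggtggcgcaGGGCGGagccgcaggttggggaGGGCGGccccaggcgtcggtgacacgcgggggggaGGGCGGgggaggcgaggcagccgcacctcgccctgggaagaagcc
Jup: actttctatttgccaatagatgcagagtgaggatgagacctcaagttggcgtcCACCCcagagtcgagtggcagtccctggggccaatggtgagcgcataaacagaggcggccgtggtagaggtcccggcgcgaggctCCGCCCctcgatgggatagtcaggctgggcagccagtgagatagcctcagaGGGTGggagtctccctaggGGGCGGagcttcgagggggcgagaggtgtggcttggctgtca
The window of Col17a1 held 2 TATA box matches, at positions -140 to -135 and -91 to -86 from the start site, and no GC box match. The windows of Dsp and of this Dst start held 4 GC box matches each and that of Jup held 2, with no TATA box match in the 3 genes. CACCC matched 2 times in Col17a1, 1 time in Dst, 2 times in Jup and 0 times in Dsp. Of all 32851 promoter windows of this length, 12.4% held a TATA box match, 32.7% a GC box match and 52.0% a CACCC match. The AP-1 letters TGANTCA, found in 6.75% of all windows, were in no window of the 5 members, and matches to different motifs did not overlap each other. GC content was 46.0% in the Col17a1 window and 62.0% to 72.4% in the other 3, against a median of 52.4% over all windows. A further Dst start, with its window at chr1:34160010-34160259 and 45.2% GC, held no match to any of the 4 motifs. Which transcripts of Dst start at either window was not determined. The 2 starts of Lamb3 held 3 CACCC matches each and nothing else. These matches describe the letters only.

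To find the effect of chronic dermatitis on these genes, DNFB skin was compared with acetone skin. The hemidesmosome genes had lower means with DNFB: Dst averaged 61.2 ± 24.2 normalized CPM (counts scaled to a common library size by TMM; SD, n = 5) with acetone and 14.6 ± 4.69 with DNFB, and Col17a1 averaged 77.3 ± 72.0 and 14.8 ± 10.8. Of the desmosome genes, Dsp averaged 161 ± 109 and 96.1 ± 54.2 normalized CPM, Dsc3 64.3 ± 43.9 and 32.4 ± 17.7, Pkp1 51.6 ± 39.1 and 37.3 ± 20.5, Jup 139 ± 148 and 119 ± 88.2, and Dsg3 18.9 ± 12.3 and 23.2 ± 17.5. None of the 9 members that could be tested passed the adjusted threshold of 0.05 by edgeR's quasi-likelihood test, in a comparison in which 3 of 7265 genes (0.0413%) did. At an unadjusted p under 0.05, edgeR put 4 of the 9 members lower, against 2.86% of all genes tested, and 0 higher, against 2.95%. All 4 were hemidesmosome genes, the only ones of that junction that could be tested, and their median log2 fold change was -1.77, against 0.02 over all genes tested. The 5 desmosome genes had a median log2 fold change of -0.48, and the difference between the junctions was not tested. Because the members and the other gene lists were chosen with earlier results of these data known, these shares are a description.

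Dst encodes dystonin, whose epithelial form is the plakin that ties hemidesmosomes to keratin, and which has other forms in nerve and muscle (Ensembl ENSMUSG00000026131, chr1:33908225-34308661). Its normalized CPM was 51.4, 101, 36.7, 55.1 and 61.5 in acetone libraries 1, 2, 3, 11 and 12, and 13.4, 19.1, 10.2, 10.3 and 19.9 in DNFB libraries 4, 5, 6, 13 and 14. All 5 DNFB libraries lay below all 5 acetone libraries, as they did for 0.702% of the genes tested. The log2 fold change was -2.09 (SE 0.50, 95% interval -3.14 to -1.04), with an edgeR p of 0.00061 and an adjusted p of 0.154. Dst passed the threshold by DESeq2 (log2 fold change -2.12, adjusted p 0.000811), as 0.337% of 23116 genes did. It also passed among the 155 genes with at least 10 counts in every library (log2 fold change -1.95, edgeR adjusted p 0.00648), of which it was the 1 called (0.645%). Leaving out 1 library at a time moved its log2 fold change between -2.20 and -1.84 and its edgeR adjusted p between 0.0507 and 0.675. The expected counts of Dst were whole in 55.0% of libraries, its 20 annotated transcripts were summed, and 2 antisense genes within its exons held 34 and 6 counts, so the forms of Dst were not separated.

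Col17a1 encodes the transmembrane collagen of the hemidesmosome (ENSMUSG00000025064, chr19:47646344-47692094). Its normalized CPM was 12.1, 69.3, 10.02, 116 and 179 in acetone libraries 1, 2, 3, 11 and 12, and 17.3, 6.38, 23.1, 26.1 and 1.05 in DNFB libraries 4, 5, 6, 13 and 14. The 3 highest values were from acetone libraries, while acetone libraries 1 and 3 lay among the DNFB libraries. Its log2 fold change was -2.36 (SE 0.82, 95% interval -4.10 to -0.63), with an edgeR p of 0.0106 and an adjusted p of 0.631. Without acetone libraries 11 and 12 it was -0.78 (SE 0.76, edgeR adjusted p 0.821). The difference was thus within its error once the 2 deep acetone libraries were left out.

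Itga6 and Itgb4 encode the alpha and beta chains of the hemidesmosomal integrin, the receptor for laminin. Itga6 (ENSMUSG00000027111, chr2:71745616-71858416) was at 12.1, 40.0, 18.4, 17.9 and 15.4 normalized CPM in acetone libraries 1, 2, 3, 11 and 12, and at 8.38, 4.78, 7.71, 16.5 and 1.05 in DNFB libraries 4, 5, 6, 13 and 14. DNFB library 13 lay within the acetone range and the other 4 below it. The log2 fold change of Itga6 was -1.30 (SE 0.56, 95% interval -2.48 to -0.13), with an edgeR p of 0.0321 and an adjusted p of 0.789. Itgb4 (ENSMUSG00000020758, chr11:115974709-116008412) did not pass the filter on low counts, with 1 to 186 counts per acetone library and 1 to 42 per DNFB library. Its normalized CPM ranged from 2.67 to 46.8 with acetone and from 1.05 to 15.4 with DNFB, and its mean log2 difference was -0.96 with a two-sided exact permutation p of 0.294. The groups of Itgb4 overlapped, although acetone libraries 11 and 12 lay above every DNFB library.

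Lamb3 encodes the beta chain of the laminin that the integrin binds (ENSMUSG00000026639, chr1:193207699-193343878). Its normalized CPM was 6.04, 16, 6.68, 15.7 and 39.8 in acetone libraries 1, 2, 3, 11 and 12, and 2.79, 11.2, 7.01, 7.72 and 5.23 in DNFB libraries 4, 5, 6, 13 and 14. The groups overlapped, with acetone libraries 1 and 3 inside the DNFB range. The log2 fold change of Lamb3 was -1.46 (SE 0.56, 95% interval -2.63 to -0.28), with an edgeR p of 0.0182 and an adjusted p of 0.717. Without acetone libraries 11 and 12 it was -0.41 (SE 0.68, edgeR adjusted p 0.919).

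**Figure D1:**
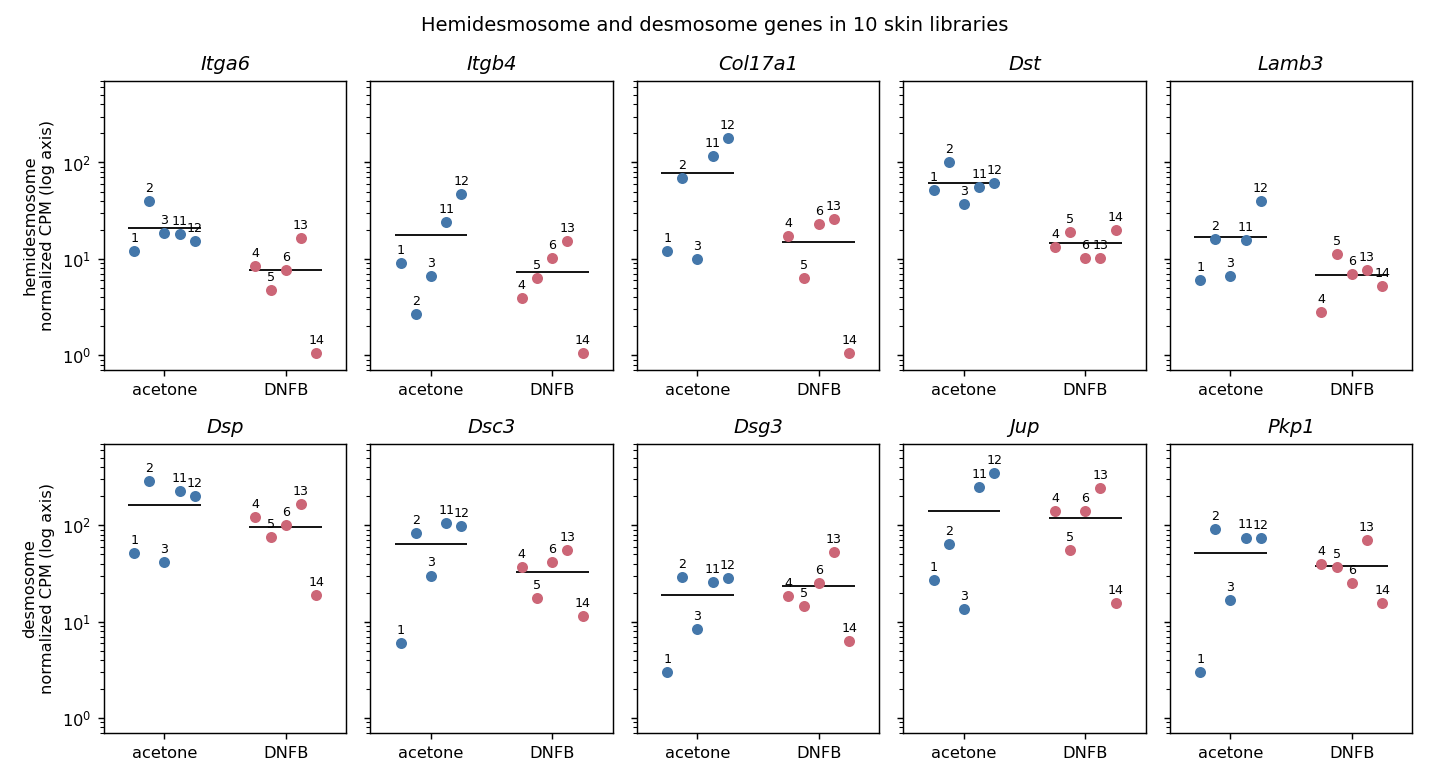
Normalized CPM (log axis) of the 10 members in each skin library, with label numbers beside the points and a line at the group mean. Dst is the member whose 5 DNFB points (10.2 to 19.9) all lie under its 5 acetone points (36.7 to 101), and DNFB library 14 is low for most members.

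Dsp encodes desmoplakin, the plakin that anchors desmosomes to keratin (ENSMUSG00000054889, chr13:38151294-38198577). Its normalized CPM was 51.4, 285, 41.7, 227 and 201 in acetone libraries 1, 2, 3, 11 and 12, and 121, 74.9, 101, 165 and 18.8 in DNFB libraries 4, 5, 6, 13 and 14. Acetone libraries 1 and 3 lay below 4 of the 5 DNFB libraries, so the groups overlapped. The log2 fold change of Dsp was -0.75 (SE 0.71, 95% interval -2.24 to 0.74; edgeR adjusted p 0.966).

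Jup encodes plakoglobin, an armadillo protein that desmosomes share with adherens junctions (ENSMUSG00000001552, chr11:100368958-100397763). Its normalized CPM was 27.2, 64.0, 13.4, 248 and 345 in acetone libraries 1, 2, 3, 11 and 12, and 140, 55.8, 141, 244 and 15.7 in DNFB libraries 4, 5, 6, 13 and 14. The acetone group itself was split, with 13.4 to 64.0 in the 3 shallow libraries and 248 and 345 in the 2 deep ones. The log2 fold change of Jup was -0.24 (SE 0.86, 95% interval -2.05 to 1.57; edgeR adjusted p 0.989), and without acetone libraries 11 and 12 it was 1.93 (SE 0.90; edgeR adjusted p 0.5).

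The cadherins Dsc3 (ENSMUSG00000059898, chr18:19960930-20002351) and Dsg3 (ENSMUSG00000056632, chr18:20510274-20547459) pair across the gap between cells in the lower layers of the epidermis. Dsc3 ranged from 6.04 to 105 normalized CPM with acetone and from 11.5 to 54.7 with DNFB, a log2 fold change of -0.99 (SE 0.66, 95% interval -2.39 to 0.40). Dsg3 ranged from 3.02 to 29.3 with acetone and from 6.28 to 52.2 with DNFB, a log2 fold change of 0.26 (SE 0.60, 95% interval -0.997 to 1.52). Dsg3 was the member with a positive log2 fold change. Pkp1, the gene of the armadillo protein plakophilin 1 (ENSMUSG00000026413, chr1:135871395-135919207), ranged from 3.02 to 90.7 with acetone and from 15.7 to 69.8 with DNFB, a log2 fold change of -0.48 (SE 0.68, 95% interval -1.91 to 0.95). The intervals of all 5 desmosome genes included 0, and their edgeR adjusted p values ran from 0.945 to 0.989.

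**Figure D2:**
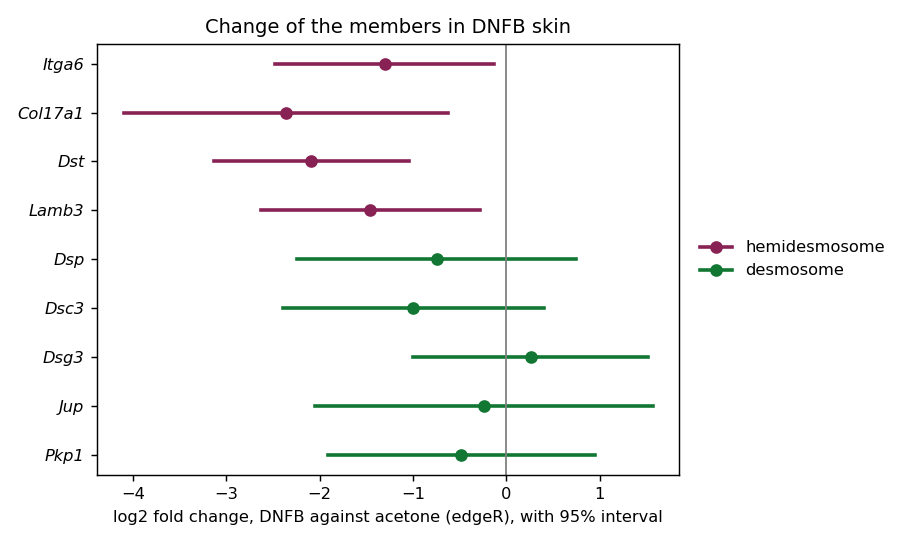
Log2 fold changes of the 9 tested members in DNFB against acetone skin by edgeR, with 95% intervals, hemidesmosome and desmosome genes in separate colours. The intervals of the 4 hemidesmosome genes lie under 0 (medians of the groups -1.77 and -0.48), and those of the 5 desmosome genes cross it; none passed the adjusted threshold.

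The labels number the skin libraries 1 to 6 and 11 to 14 without saying what the numbers mean. Within numbers 1 to 10 (3 acetone and 3 DNFB libraries), the edgeR log2 fold change was -2.13 for Dst, -1.53 for Itga6, -0.70 for Col17a1, -0.22 for Dsp and 1.84 for Jup. Within numbers 11 to 20 (2 and 2 libraries), it was -2.06 for Dst, -0.74 for Itga6, -3.34 for Col17a1, -1.22 for Dsp and -1.18 for Jup. Dst was thus near -2 in both sets, Col17a1 and Itga6 were negative in both at differing sizes, and Jup took opposite signs. No member passed the adjusted threshold in either set, where 0 of 4035 genes (0%) passed within numbers 1 to 10 and 975 of 11259 (8.66%) within numbers 11 to 20.

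Levels within a library do not depend on how libraries are scaled, so the counts of the 10 members were also compared with each other. The hemidesmosome genes took 50%, 29.4%, 41.6%, 25.2% and 31.5% of member counts in acetone libraries 1, 2, 3, 11 and 12, and 11.4%, 19.4%, 14.9%, 11.5% and 29.3% in DNFB libraries 4, 5, 6, 13 and 14. DNFB library 14, with 27 of 92 member counts on hemidesmosome genes (29.3%, 95% Wilson interval 21.0% to 39.3%), was the DNFB library that reached the acetone range. The group medians were 31.5% and 14.9%. This share and the variants of it given next were chosen after the values were seen and are a description without a test.

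Without Dst, the other 4 hemidesmosome genes took 18.8% to 30.2% of the remaining counts with acetone and 8.34% to 12.6% with DNFB, and the groups did not overlap. Without Jup, the 5 hemidesmosome genes took 32.0% to 58.8% with acetone and 17.5% to 35.1% with DNFB, and the groups overlapped. Without Dst and Jup, the share was 20.8% to 41.3% with acetone and 13.03% to 20% with DNFB, without overlap. Set against the 5 desmosome genes alone, Col17a1 took 11.8%, 11.2%, 8.33%, 14.5% and 19.4% in acetone libraries 1, 2, 3, 11 and 12, and 4.64%, 3.10%, 6.50%, 4.27% and 1.52% in DNFB libraries 4, 5, 6, 13 and 14. On this measure the shallow acetone libraries lay above every DNFB library but below the deep acetone libraries. The counting error is wide: the 95% Wilson interval was 3.88% to 17.01% in acetone library 3 (6 of 72 counts) and 0.268% to 8.10% in DNFB library 14 (1 of 66 counts). Of 7256 other genes set against the 5 desmosome genes in the same way, 8 (0.11%) were lower in DNFB skin without overlap and 76 (1.05%) higher. 2 of the 8 were in the marker lists. Krt15, a keratin of basal and hair follicle stem cells, was at 29.0% to 41.2% with acetone and 5.24% to 13.3% with DNFB, and Col1a1, a collagen of fibroblasts, at 8.59% to 24.1% and 4.58% to 5.80%. The keratins of all basal cells overlapped, Krt5 at 21.0% to 42.2% with acetone and 19.4% to 38.1% with DNFB, and Krt14 at 43.1% to 64.98% and 53.8% to 83.4%, with the higher median in DNFB skin (63.6% against 52.2%). Dst, Itga6, Itgb4 and Lamb3 each overlapped between the groups on this measure. Within the desmosome, Dsg3 took 3.33% to 7.58% of the counts of its 5 genes with acetone and 5.18% to 9.23% with DNFB.

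**Figure D3:**
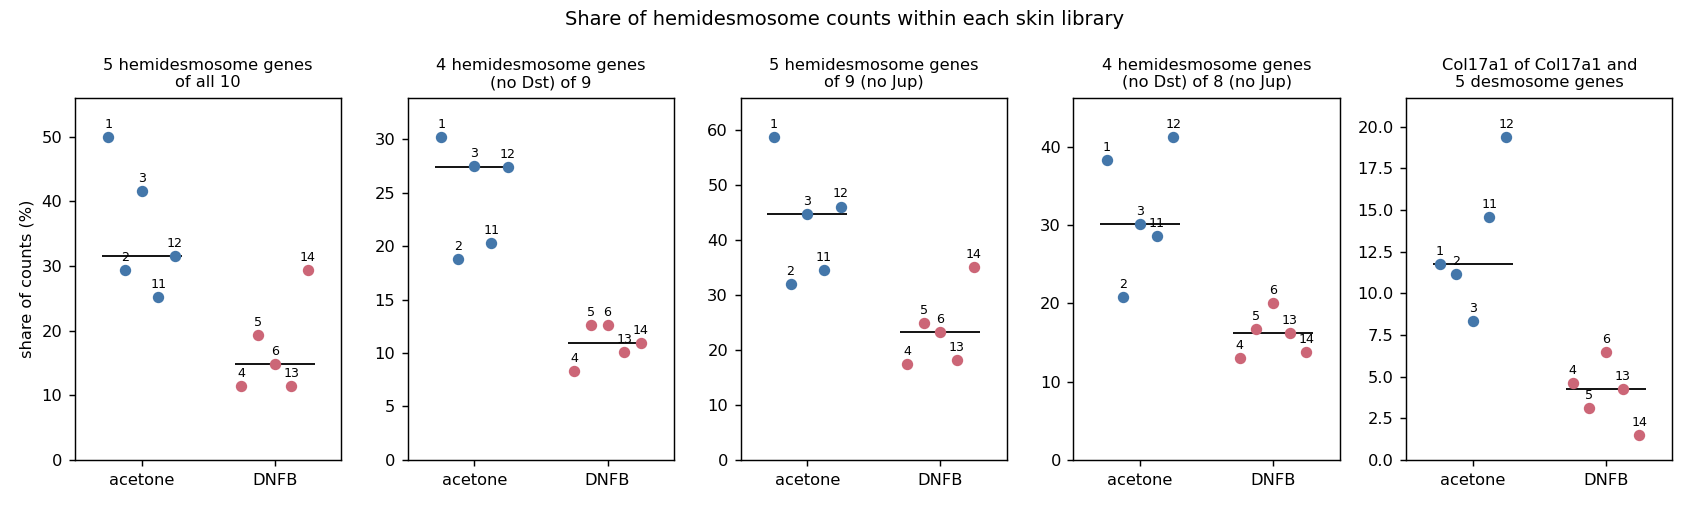
Share of counts (%) within each skin library, with label numbers beside the points and a line at the group median: the 5 hemidesmosome genes among all 10, the same without Dst, without Jup, without Dst and Jup, and Col17a1 among itself and the 5 desmosome genes. DNFB library 14 reaches the acetone range with all 10 genes (29.3%) and without Jup (35.1%), and the groups do not overlap in the other 3 panels.

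The partners of these junctions were taken from lists of other genes. Of 12 further genes of the hemidesmosome and its basement membrane, 8 could be tested, none passed the adjusted threshold by edgeR and 7 had a negative log2 fold change (median -0.78), while 48.3% of all genes tested did. The 2 with the smallest edgeR p were Itgb1, the beta chain shared by many integrins (log2 fold change -1.20, SE 0.52, p 0.0327, adjusted p 0.791), and Plec, the plakin plectin of the hemidesmosome (log2 fold change -1.24, SE 0.54, p 0.0347, adjusted p 0.792). Of 14 further desmosome genes 8 could be tested, none passed and 6 were negative (median -0.35). Among these Dsg1a, a cadherin of the upper layers, had the smallest edgeR p (log2 fold change -1.85, SE 0.59, p 0.00626, adjusted p 0.607), but its reads can be shared with its near-identical copies Dsg1b and Dsg1c. Of 15 genes of adherens and tight junctions 11 could be tested, none passed, 0 had an unadjusted edgeR p under 0.05 and 7 were negative (median -0.38), with Nectin1 at -0.59.

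Markers of other cells also differed between the skin libraries. Of 6 fibroblast markers, 5 could be tested, none passed the adjusted threshold, and all 5 had a negative log2 fold change, 3 of them at an unadjusted edgeR p under 0.05, among them Col1a2 (-1.86) and Col3a1 (-1.88). The summed fibroblast markers were 130 to 599 normalized CPM with acetone and 104 to 176 with DNFB, and none of the 6 was at 0 in all libraries of a group. The summed leukocyte markers were 545 and 811 in acetone libraries 11 and 12 and 41.7 to 77.3 in the other acetone libraries, against 48.6 to 249 with DNFB. Of the 6 leukocyte markers, all tested, 4 had a positive log2 fold change (median of the 6, 0.56). The 2 negative ones, Lyz2 (-2.05) and Cd74 (-1.75), had an unadjusted edgeR p under 0.05. The summed skeletal muscle markers were 90.7 to 267 with acetone and 61.4 to 188 with DNFB. Activated keratinocyte markers, of which 4 of 5 could be tested and 3 were higher at an unadjusted edgeR p under 0.05, were 33.4 to 444 with acetone and 163 to 4473 with DNFB, with Krt16 at a log2 fold change of 4.72 and Krt6a at 4.28 (edgeR adjusted p 0.128 and 0.154). Hair shaft markers ran from 2.67 to 404 with acetone and 47.8 to 929 with DNFB, and melanocyte markers from 16 to 268 and 115 to 416. Basal keratinocyte markers were 199 to 2791 with acetone and 217 to 2414 with DNFB. The part of these cells in the lower values of Dst and the other hemidesmosome genes was not tested.

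The genes whose pattern over the 10 skin libraries was most like the mean of the standardized members were Anxa8 (Pearson r 0.980), Rnase4 (0.970), Dmkn (0.963), Itm2b (0.953) and Sbsn (0.949). All 5 had a negative log2 fold change in DNFB skin, from -1.60 to -1.23, and none passed the threshold. They were picked by likeness to the members over the same libraries, so their shared sign follows in part from that choice. The 10 points share the depth and the mixture of each library, and the value is a description of likeness.

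In the pancreas the members were near the limit of detection. Jup, which simple epithelia use in their junctions too, was the member that passed the filter on low counts, and it did not pass the test in a comparison in which 12.2% of 946 genes did. Its normalized CPM was 3.21, 14.4, 19.4, 10.6 and 0 in PBS libraries 7, 8, 15, 16 and 17, and 6.84, 8.76, 1.51, 9.61 and 32.8 in caerulein libraries 9, 10, 18, 19 and 20. Its log2 fold change was 0.40 (SE 0.76, 95% interval -1.20 to 1.99; edgeR adjusted p 0.745). Caerulein library 20 was the highest for Jup, with 175 of the group's 269 counts, and without it the log2 fold change was -0.37. That library also held 46 of the 53 Dsp counts of its group and 250 normalized CPM of summed duct and simple epithelium markers, against 29.3 to 72.7 in the other caerulein libraries and 7.04 to 25.4 in PBS libraries. The part of duct cells in these values was not tested.

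Dst and Itga6 were the hemidesmosome genes with the most pancreatic counts. Dst held 4 to 14 counts per PBS library and 8 to 94 per caerulein library, or 11.4 ± 7.66 and 10.5 ± 4.50 normalized CPM (SD, n = 5), and its mean log2 difference was -0.01 with a two-sided exact permutation p of 0.968. Itga6 held 0 to 7 and 1 to 31 counts, and its mean log2 difference was 0.51 (exact permutation p 0.460). Itgb4 held 1 to 10 and 1 to 34 counts, with a mean log2 difference of -0.29 (exact permutation p 0.603). Lamb3 held 1 to 3 counts per PBS library and 1 to 5 per caerulein library, and although its exact permutation p was 0.0159 (mean log2 difference -0.68), 3 counts or fewer per library set no level to compare with. Col17a1 had 1 count in all 5 PBS libraries together and 0 in caerulein libraries, which allows up to 3 counts per library. Pkp1 had 1 and 10 counts over the 5 libraries of each group, Dsg3 2 and 10, Dsc3 6 and 19, and Dsp 5 and 53, all with exact permutation p between 0.405 and 0.944.

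The control tissues were compared to see at which level each carries these genes, acetone skin against PBS pancreas. 3 members passed the filter on low counts, and a gene at 0 in pancreas could pass it only by being high in skin, so the count of calls among them is not a result about the members. Dsp and Jup passed the adjusted threshold, in a comparison in which 25.1% of 736 genes did. Dsp passed the filter through skin alone, so its call is not read further: it averaged 77.3 ± 51.5 normalized CPM in acetone skin and 1.41 ± 1.40 in PBS pancreas, in which no library held more than 2 counts. Against a floor of 3 counts per pancreas library, Dsp was at least 18.96-fold higher in skin, and at least 11.7-fold without acetone libraries 11 and 12. Jup averaged 74.8 ± 84.1 and 9.03 ± 7.14, a log2 fold change of 3.05 (SE 1.03; edgeR adjusted p 0.0324), although its lowest skin library (6.11) lay within the pancreas range, and without acetone libraries 11 and 12 the log2 fold change was 0.77 (adjusted p 0.605). Dst held 17 to 301 counts per acetone library and 4 to 14 per PBS library. It too could pass the filter through skin alone, so its test is not read further. Dst averaged 28.9 ± 7.25 and 10.7 ± 5.41, a log2 fold change of 1.44 (SE 0.61, edgeR adjusted p 0.0853).

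For the members kept out by the filter, exact permutation tests (two-sided, unadjusted) were used, whose smallest p with 5 against 5 libraries is 0.00794. The share of all genes that reach it between these tissues is not given, so reaching it is not read as a result about the members. Col17a1 and Pkp1 reached it and were at least 9.77-fold and 6.07-fold higher in skin against the floor, although the lowest skin library of Pkp1 held 1 count, as did 1 pancreas library. Dsc3 (at least 7.86-fold), Dsg3 (at least 2.25-fold) and Lamb3 (at least 2.07-fold) had exact permutation p values of 0.0159, 0.0159 and 0.0317, each with a skin library in the pancreas range. These bounds rest on the deep acetone libraries: without library 12 they fell to 6.40-fold for Col17a1 and 1.301-fold for Lamb3. Without libraries 11 and 12 they were 2.83-fold for Col17a1, 3.69-fold for Dsc3, 3.28-fold for Pkp1 and 1.26-fold for Dsg3, and Lamb3 was not above the floor. Itga6 had a mean log2 difference of 1.67 (exact permutation p 0.0159) and Itgb4 one of 0.81 (exact permutation p 0.325). Tissue and the way it was taken cannot be told apart in this comparison.

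On a scale shared by the 4 groups, counts per 10000 counts outside the satellite-like genes, the median of acetone skin was the highest for 8 of the 10 members, and the acetone and DNFB ranges overlapped for 9 of the 10, all but Dst. The same was not counted over all genes on this scale, so these counts are a description and not a result about the members. For Dst the order of medians was acetone skin (2.60), caerulein pancreas (0.911), DNFB skin (0.683) and PBS pancreas (0.575), with each neighbour in that order overlapping the next. For Itga6 it was acetone skin (0.719), caerulein pancreas (0.451), PBS pancreas (0.364) and DNFB skin (0.321), again with overlapping neighbours. The PBS pancreas medians rest on 4 to 14 counts per library for Dst and 0 to 7 for Itga6. For Dsp the order was acetone skin (8.51), DNFB skin (4.201), caerulein pancreas (0.114) and PBS pancreas (0.0992), and the pancreas medians rest on at most 3 counts in most libraries. Jup and Dsg3 had their highest median in DNFB skin, at 5.86 against 1.94 in acetone skin for Jup and 0.939 against 0.888 for Dsg3, with overlapping ranges.

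**Figure D4:**
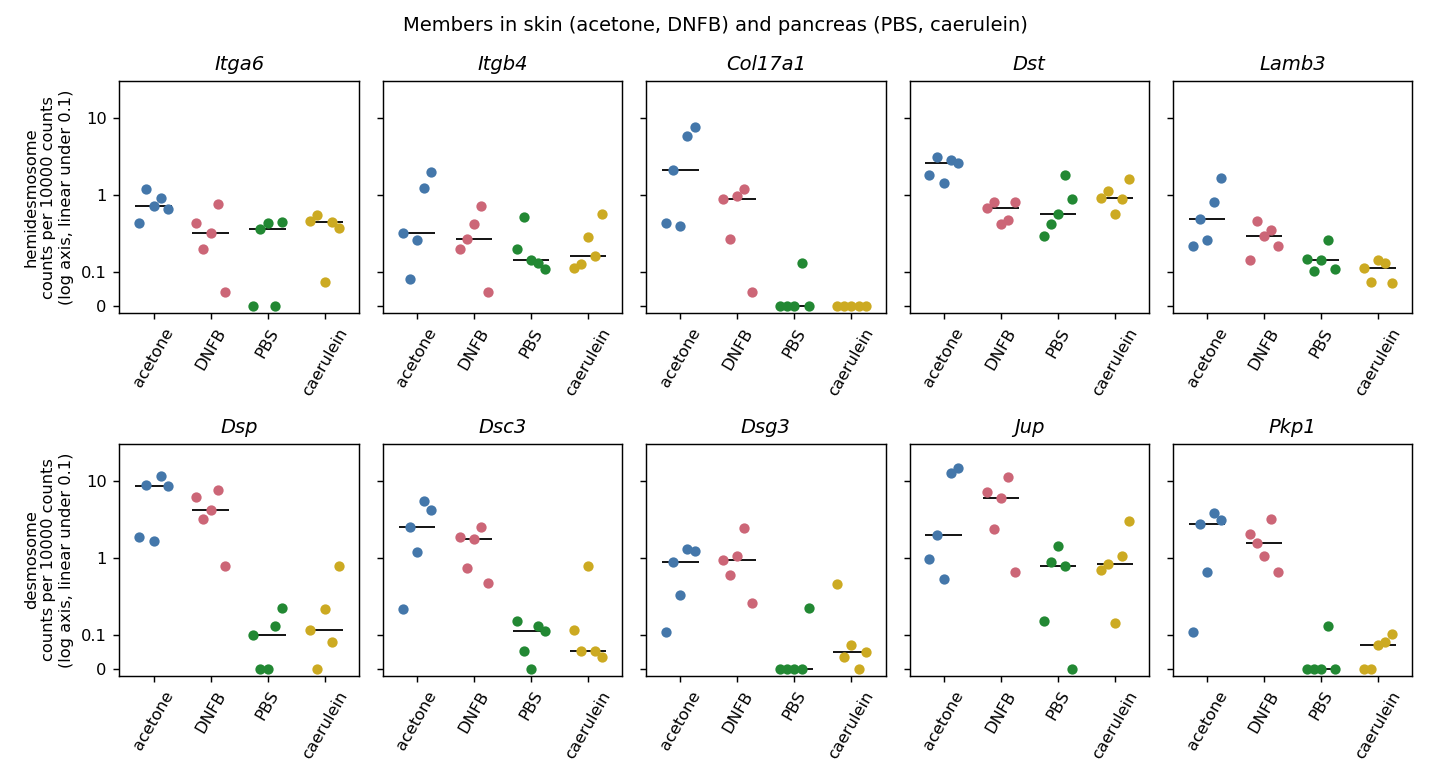
Counts of each member per 10000 counts outside the satellite-like genes (log axis, linear under 0.1) in the 20 libraries, with a line at the group median. The DNFB skin and pancreas libraries overlap for every member but Pkp1. The medians of Itga6 and Dst in DNFB skin and pancreas are 0.321 to 0.911, and those of Col17a1, Pkp1 and Dsg3 are at or near 0 in pancreas.

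Per kilobase of exon, the order of the members in acetone skin was Jup (21.7 ± 23.1 normalized CPM per kb), Dsp (16.7 ± 11.3), Col17a1 (12.9 ± 11.98), Dsc3 (11.9 ± 8.12), Pkp1 (10.3 ± 7.77), Dsg3 (2.71 ± 1.76), Lamb3 (2.55 ± 2.07), Itgb4 (2.54 ± 2.58), Itga6 (2.30 ± 1.22) and Dst (1.49 ± 0.588; SD, n = 5 for each). Each differed from its neighbour in that order by less than the larger SD of the pair, but Dsg3 lay below Pkp1, and Dst below Itga6, by more than its own SD. In DNFB skin Jup (18.5 ± 13.7) and Dsp (9.95 ± 5.62) were at the head and Dst (0.354 ± 0.114) at the foot. Exons of all transcripts were joined for the length, so a gene expressed as a short transcript, as Dst with 41.2 kb of joined exons can be, is understated on this scale.

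The response in skin was compared with the response in pancreas as an interaction of all 20 libraries. None of the 10 members passed the adjusted threshold by edgeR, as 22 of 8336 genes (0.264%) did. 1 of the 10, Dst, was lower at an unadjusted edgeR p under 0.05, near the background of 12.2% of all genes, whose median log2 difference was -0.37. Dst, Itga6 and Itgb4 did not pass the filter on low counts within pancreas. They could enter this fit through skin alone, so their tests are not read further. Dst had a log2 difference of responses of -1.85 (SE 0.70, 95% interval -3.28 to -0.42; edgeR p 0.0128, adjusted p 0.169). By DESeq2, which called 875 of 16186 genes (5.41%), the difference for Dst was -2.78 with an adjusted p of 0.00615. Itga6 had a difference of -1.26 (SE 0.95, 95% interval -3.19 to 0.67; edgeR adjusted p 0.476). Itgb4 had a difference of -0.48 (SE 1.005, 95% interval -2.53 to 1.57; edgeR adjusted p 0.817) and Jup one of -0.34 (SE 1.19, 95% interval -2.76 to 2.08; edgeR adjusted p 0.905). The other 6 held at most 3 counts in every PBS library and are given no value.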

How the data were processed

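RNA from 20 libraries was analysed, grouped by the labels' treatment. The authors made Smart-Seq2 libraries, mapped reads to mm10 (GRCm38) with STAR 2.5.3 and deposited expected counts per gene from RSEM 1.3.1. The annotation, strand setting and read filters are not given in the sources used here. Expected counts (94.7% whole) were rounded; all rows of the table name a gene, 55144 of 55471 matched to a symbol, and 0 columns of per-sample values were left unused. Library pairs within groups were compared by chi-square (per degree of freedom 3.01 to 87.1 over 40 pairs, 0 identical) and counted as separate. As no molecular identifiers were read, Wilson intervals and the floor of 3 counts cover counting error only. A floor of 3 counts is 0.000134% to 0.000379% of a library.

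Groups were compared with R 4.3.3 and edgeR 4.0.16 (filterByExpr with minimum count 10, TMM, glmQLFTest, Benjamini-Hochberg over all genes tested, threshold 0.05, two-sided), each tissue in its own fit and the interaction in a fit of all libraries. DESeq2, which the study names, was run as version 1.42.0 for an alternative. For members under the filter, the means of log2 normalized CPM (after adding 1 count at the median depth) were permuted exactly between groups, two-sided. These p-values were not adjusted. The edgeR step was tested on simulated data. Alternatives changed the scaling, filter, tool, covariates and libraries. The named genes are all members and, from each other list and comparison, those past the threshold (at most 4 per direction) or else the 2 with the smallest p, except 1 gene that is not reported here; values of Krt5 and of marker sums were chosen after they were seen. The members and lists were chosen with earlier results of these data known.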

Additional observations from a re-analysis of the deposited data

Results flagged for a closer look

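5 of 43 member and group combinations had a library whose gap to the nearest of the others exceeded 0.71 of the group's range. All 5 were in pancreas and rest on few counts, so the share of 1 in 20 groups that chance gives for continuous values does not apply, and with 4 libraries at 0 the gap is 1 by construction. The gap was 1 of the range for Col17a1 and Pkp1, where PBS library 16 held 1 count of each and the other 4 libraries 0, and 1 for Dsg3, where PBS library 17 held 2 counts and the others 0. It was 0.778 for Itga6, where caerulein library 18 held 1 count and the others 4 to 31, and 0.765 for Dsc3, where caerulein library 18 held 11 counts and the others 1 to 3. Caerulein library 18 was thus low for Itga6 and high for Dsc3.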

How the results depend on the processing

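The skin log2 fold changes of Itga6, Col17a1, Dst, Lamb3, Dsp and Dsc3 kept their sign under every alternative run, and no member passed the threshold except Dst, which did so by DESeq2 and with at least 10 counts in every library (1 member called under each). Splits by label number, leaving out DNFB library 14 with acetone library 1, and the shares were chosen after seeing the data. In skin, genes called (3) were 0 with DESeq2 size factors, 0 with library totals, 108 with no filter, 1 with at least 10 counts, 78 by DESeq2, 24 with the label-number run as covariate, 5 without satellite-like genes, 25 in a fit of all libraries, 1 without acetone libraries 11 and 12, 0 within numbers 1 to 10, 975 within 11 to 20, 0 without DNFB library 14 and acetone library 1, and 0 to 59 without 1 library. Jup in skin turned to 0.62 with the run as covariate, 1.93 without acetone libraries 11 and 12 and 1.84 within numbers 1 to 10, with -0.68 to 0.37 without 1 library; Pkp1 turned to 0.16 without acetone libraries 11 and 12, and Dsg3 ran from -0.28 to 0.52 without 1 library. In pancreas, genes called (115) were 61, 530, 1297, 39 and 735 with DESeq2 size factors, library totals, no filter, at least 10 counts and DESeq2, 6 and 406 within numbers 1 to 10 and 11 to 20, and 15 to 280 without 1 library; no member was called. Jup there was -0.27 with the run as covariate, -0.15 within numbers 1 to 10 and -0.37 to 0.62 without 1 library. In the exact comparisons in pancreas, library totals gave Itgb4 0.84, Dst 1.43 and Lamb3 0.31, and DESeq2 size factors gave Dst 0.39 and Lamb3 -0.43; without 1 library Itgb4 ran from -0.59 to 0.025, Dst from -0.20 to 0.30, Dsp from -0.11 to 0.72 and Dsc3 from -0.46 to 0.30. Between control tissues, genes called (185) were 356, 1202, 25 and 1255 with library totals, no filter, at least 10 counts and DESeq2, 511 with the run as covariate, 870 in a fit of all libraries, 94 without acetone libraries 11 and 12, 3098 within numbers 11 to 20 and 120 to 460 without 1 library. Members called (2 of 3 tested, with 185 of 736 genes) were 6 of 10 with no filter (1202 of 40039 genes). With at least 10 counts 0 members were tested (25 of 56 genes called). By DESeq2 they were 7 of 10 (1255 of 12862 genes), and with the run as covariate 5 of 8 (511 of 3806). In a fit of all libraries they were 5 of 10 (870 of 8336), and without acetone libraries 11 and 12 they were 1 of 3 (94 of 799). Within numbers 11 to 20 they were 8 of 10 (3098 of 8612), and without 1 library 1 to 4. These counts are a description. DESeq2 size factors gave Itga6 1.64 and Lamb3 1.27, no longer past 0.05. Without 1 library Itga6 and Lamb3 ran from 1.28 to 1.97 and 0.82 to 1.43. For the difference of responses, genes called (22) were 100 and 0 with DESeq2 size factors and library totals, 1009 with no filter, 7 with at least 10 counts, 875 by DESeq2, 9 with the run as covariate, 37 without satellite-like genes, 0 without acetone libraries 11 and 12, 0 within numbers 1 to 10, 1657 within 11 to 20 and 0 to 625 without 1 library, and 1 member (Dst) was called by DESeq2. The cause of these changes was not tested, beyond fewer genes or libraries entering a fit. No paired analysis was possible because the labels repeat no number across groups. Depth limits the members in pancreas, where most libraries held under 10 counts of most members.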
